A study of Mus musculus with 4 samples.

Results

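The genes described here are 10 regulators that hold cells out of division or mark cells that have stopped dividing: the CDK inhibitors Cdkn1a, Cdkn1b, Cdkn1c and Cdkn2c, the G cyclins Ccng1 and Ccng2, the antiproliferative genes Btg1 and Btg2, the translation inhibitor Pdcd4 and the pocket protein Rbl2. They were listed by name, but with earlier results of these data known, so the shares of them called below are not those of a blind choice. All 10 were found among the 21470 genes of the count table. Of these, 8 had enough counts to be tested, and Cdkn1c and Rbl2 did not. The libraries came from mouse embryos of the cross of B6D2F1 males with ICR females, genotype WT, taken at 2 times labelled D10 and E4 and separated into an inner cell mass side (ICM) and a trophectoderm side (TE). The 4 groups were D10 ICM, E4 ICM, D10 TE and E4 TE, with 5 libraries each. The barcode list marks D10 as day 6 and E4 as before, and the title of the series contrasts embryos before diapause with embryos after it, while the protocol calls every dissected embryo a diapause embryo. These sources conflict, so the times are called only D10 and E4. The replicates of a group were mixed before PCR, so that amplification pool and group cannot be told apart, and whether a library held 1 embryo or several is not stated.

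Embryonic diapause is a reversible arrest in which the blastocyst stays unattached in the uterus and its cells divide slowly or not at all. Entry into the cell cycle is driven by cyclin-dependent kinases (CDKs). Proteins of the Cip/Kip family, encoded by Cdkn1a (p21), Cdkn1b (p27) and Cdkn1c (p57), bind cyclin and CDK together, whereas INK4 proteins such as p18, encoded by Cdkn2c, bind CDK4 and CDK6 alone. When these kinases are inactive, pocket proteins such as p130, encoded by Rbl2, stay bound to E2F factors and keep cell cycle genes silent. Btg1 and Btg2 belong to the BTG/TOB family, which recruits the CCR4-NOT deadenylase to messenger RNA. The protein of Pdcd4 binds the helicase eIF4A and inhibits cap-dependent translation, and the G cyclins associate with protein phosphatase PP2A. Cdkn1a, Ccng1 and Btg2 are textbook targets of p53, and Cdkn1b, Ccng2 and Btg1 are known targets of FOXO factors.

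The promoters of 3 of these genes are shown because they hold the motif of one of those factors and because the genes were called higher at D10, Btg1 in the ICM only. They were thus chosen by the match and by the change. Of the other targets just named, Btg2 had no p53 decamer in its window, and Cdkn1b and Ccng2 had no forkhead motif. Windows of 250 bases upstream of the annotated start were taken from RefSeq on GRCm38.p6, and 9 of the 10 genes matched a window. Cdkn1c did not. Each sequence is written 5′ to 3′ on the gene's own strand. Capitals mark a p53 decamer (the 10-base unit of the p53 response element) in Cdkn1a and Ccng1, and the forkhead motif GTAAACA, present on the opposite strand, in Btg1. The windows lie at chr17:29090729-29090978 on the plus strand for Cdkn1a, chr11:40755287-40755536 on the minus strand for Ccng1 and chr10:96616751-96617000 on the plus strand for Btg1.
Cdkn1a: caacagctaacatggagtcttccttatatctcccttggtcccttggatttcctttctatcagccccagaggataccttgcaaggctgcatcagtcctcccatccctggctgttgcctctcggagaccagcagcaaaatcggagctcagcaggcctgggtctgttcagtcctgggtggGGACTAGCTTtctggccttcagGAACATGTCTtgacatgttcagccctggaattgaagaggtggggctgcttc
Ccng1: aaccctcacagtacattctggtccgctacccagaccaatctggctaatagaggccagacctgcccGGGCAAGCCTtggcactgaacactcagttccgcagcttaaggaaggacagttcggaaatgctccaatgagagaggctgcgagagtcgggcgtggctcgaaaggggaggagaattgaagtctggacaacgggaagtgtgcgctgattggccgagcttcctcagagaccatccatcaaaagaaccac
Btg1: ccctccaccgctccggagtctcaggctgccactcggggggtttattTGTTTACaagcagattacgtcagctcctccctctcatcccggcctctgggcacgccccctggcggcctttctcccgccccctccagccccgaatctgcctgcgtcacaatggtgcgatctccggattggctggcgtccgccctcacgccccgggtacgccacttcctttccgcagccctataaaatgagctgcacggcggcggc
The decamers began 73 and 51 bases before the start that follows the printed window in Cdkn1a and 185 bases before it in Ccng1. The forkhead motif began 204 bases before it in Btg1. Cdkn1a has a second annotated start further downstream, whose window lies at chr17:29093519-29093768.

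Both strands of the windows were searched for these motifs. The 9 genes had 12 windows, since Cdkn1a, Cdkn2c and Pdcd4 had more than 1. A gene counts below if any of its windows held the motif, whereas the shares over all genes are per window. The counts of genes are thus not on the same footing as those shares. The other window of Cdkn1a held GC boxes and no p53 decamer. The p53 decamer was found in 2 of the 9 genes and in 7.13% of 32851 windows of the same length over all RefSeq genes. The forkhead motif was found in 1 of the 9 genes and in 3.17% of all windows, and the CHR motif TTTGAA, bound by the DREAM complex, in 1 (Rbl2) and in 16.0%. The GC box GGGCGG was found in 7 genes and in 32.7% of windows. The E2F motif TTTGGCGC and the E box CACGTG were in none of the 9, against 0.417% and 6.02% of windows. In the 3 printed windows no capitalised match overlapped another searched motif. A match describes these letters in these windows only.

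Counts came from the 3′ ends of transcripts. Library totals ran from 144276 to 1010354 counts, so that 3 counts, the limit where none is seen, correspond to 20.8 CPM in the shallowest library and 2.97 in the deepest, from counting error alone. CPM are counts scaled to a common library size, with TMM factors for all levels below and without them for these limits. Sox2, an epiblast marker, was higher in ICM than in TE at D10 (log2 9.83 ± 0.78, adjusted p = 1.51e-08) and at E4 (8.07 ± 0.77, adjusted p = 1.46e-07), and Gata3, a trophectoderm marker, was lower (-1.68 ± 0.21 and -1.96 ± 0.21, adjusted p = 1.25e-06 and 2.32e-07). By mean level, 9 of 9 epiblast, 9 of 9 primitive endoderm and 0 of 10 trophectoderm markers were higher in ICM than in TE at E4. At D10 the exceptions were Zfp42 (53.1 CPM in ICM and 66.1 in TE) and the trophectoderm marker Elf5 (153.9 CPM in ICM and 66.0 in TE). The ICM libraries were not free of trophectoderm transcripts, since all 10 trophectoderm markers were counted there. Their summed level was 3419 to 5401 CPM in D10 ICM and 2070 to 2953 CPM in E4 ICM, against 7123 to 9610 CPM in D10 TE and 6849 to 7712 CPM in E4 TE. The sum of 9 primitive endoderm markers was 5459 to 8015 CPM in D10 ICM, against 1513 to 3574 CPM in E4 ICM, led by Sparc (4505 ± 1213 CPM at D10 and 1125 ± 511 CPM at E4) and Lama1 (1471 ± 601 and 464 ± 316 CPM). Of the factors of that lineage in the ICM, Gata6 had 161 ± 56.7 CPM at D10 and 342 ± 60.1 CPM at E4, and neither Sox17 (log2 0.84 ± 0.37) nor Gata4 (0.62 ± 0.42, adjusted p = 0.301) was called. The sum of 9 epiblast markers was 604 to 1104 CPM in D10 ICM, against 1482 to 2638 CPM in E4 ICM. Nanog, an epiblast factor, fell in the ICM by 2.55 (SE 0.43, adjusted p = 0.000151), and Sox2 differed by 0.10 ± 0.36 (adjusted p = 0.878). Uterine epithelium markers, with 6 of 7 in the table, had 204 to 340 CPM in D10 ICM against 57.9 to 206 CPM in E4 ICM, and 414 to 544 CPM in D10 TE against 122 to 229 CPM in E4 TE. Most of each sum was 1 gene, Wfdc2, with a mean of 184 CPM in D10 ICM, 114 in E4 ICM, 425 in D10 TE and 151 in E4 TE. Foxa2, with 43.6 CPM in D10 ICM and 8.66 in E4 ICM, is also in the primitive endoderm list. By mean level 5 of the 6 were higher at D10 in the ICM and 4 in the TE, and Pgr was lower in both. Ltf, a defining gene of that list, was at 0 in every group but D10 ICM. The part of these marker levels in the differences below was not tested, and in such bulk samples fewer cells of a type and less RNA per cell cannot be told apart.

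The comparison of D10 with E4 asked which genes changed across the time the series calls diapause. In the ICM 5 of the 8 tested genes rose (Cdkn1a, Ccng1, Btg1, Btg2 and Pdcd4) and 0 fell, where 13.7% of all 6943 tested genes rose and 9.92% fell by the same test, edgeR's quasi-likelihood test at an adjusted p of 0.05. The median log2 fold change was 2.34 over the 8 genes and -0.00 over all genes. The low-count filter used all libraries, so a gene could pass it through a group where it was high. In a fit of only the 2 ICM groups, 4 of the 10 genes passed the filter and 3 rose. In the TE 4 rose (Cdkn1a, Ccng1, Btg2 and Pdcd4) and 1 fell (Ccng2), where 11.7% of all genes rose and 10.3% fell, and the median was 1.55 against 0.01 over all genes. Ranked by p among all tested genes, Pdcd4, Cdkn1a and Ccng1 stood at 15, 18 and 38 in the ICM and at 31, 54 and 225 in the TE. The 5 D10 libraries all lay above the 5 E4 libraries for 4 of the 8 genes in the ICM, against 8.01% of all genes, and for 5 in the TE, against 8.41%. For 0 of the 8 they all lay below, against 6.42% of all genes in the ICM and 6.74% in the TE.

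**Figure D1:**
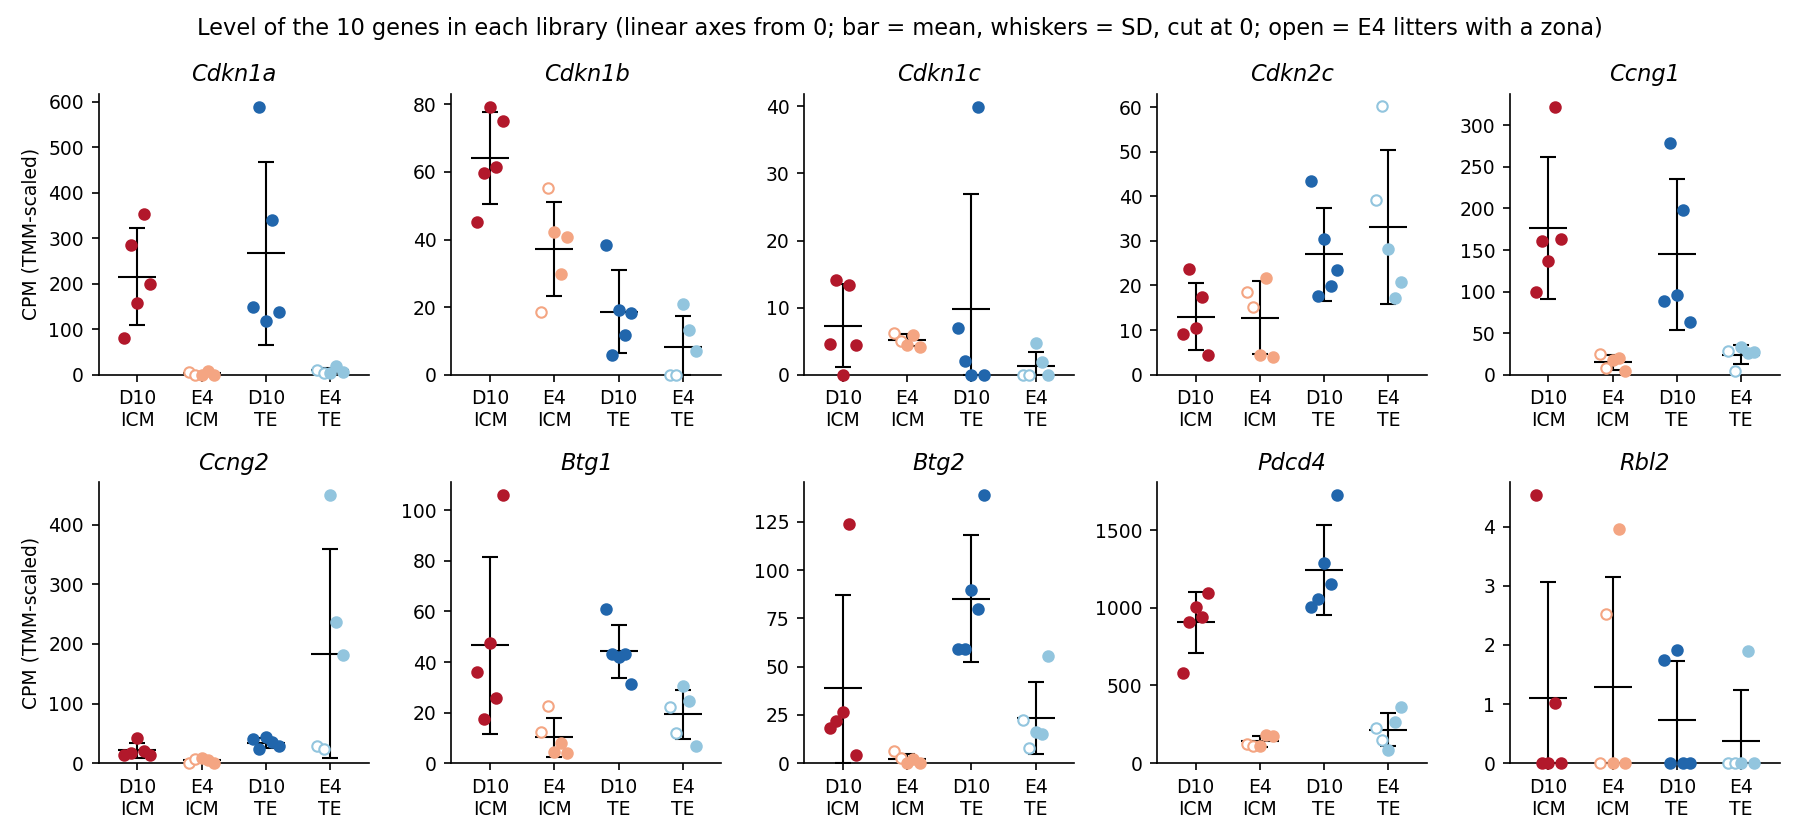
Level of each of the 10 genes in every library, in CPM on linear axes from 0 (1 panel a gene; points are libraries, the bar is the mean and the whiskers the SD, cut at 0; open points are E4 litters with a zona). Pdcd4, Cdkn1a and Ccng1 stand higher in every D10 library than in any E4 library of the same tissue, and the Ccng2 points of E4 TE fall in separate ranges.

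Among the CDK inhibitors, Cdkn1a (ENSMUSG00000023067, GRCm38 chromosome 17, 29090976 to 29100727, plus strand) changed most. Its level was 81.5, 285, 159, 353 and 199 CPM in the 5 D10 ICM libraries, against 6.18, 0, 0, 7.92 and 0 CPM in E4 ICM. The TE libraries had 150, 589, 118, 339 and 139 CPM at D10, against 11.2, 4.02, 4.68, 19.0 and 6.96 CPM at E4. Groups did not overlap in either tissue, and every D10 library stood above the highest E4 library of its tissue. The gene rose in the ICM (215 ± 106 CPM at D10 and 2.82 ± 3.91 CPM at E4, SD, n = 5; log2 6.16 ± 0.69, adjusted p = 1.05e-06) and in the TE (267 ± 201 and 9.18 ± 6.19 CPM; log2 4.67 ± 0.58, adjusted p = 2.32e-06). All of E4 ICM held only 5 counts, 4 of them in replicate 4, so the fitted size is imprecise, and without that library it was 7.64. As pooled counts, 619 at D10 against 5 at E4 gave a ratio of 83.7 (95% interval 35.7 to 259, counting error only). Between the tissues the gene was not called, with -0.26 ± 0.39 at D10 (95% interval -1.07 to 0.55, adjusted p = 0.690) and -1.75 ± 1.05 at E4 (95% interval -3.91 to 0.42, adjusted p = 0.217), ICM over TE. The E4 difference was called with no filter on low counts (adjusted p = 0.0480), and the ICM library stood above the TE library in 0 of 5 litters at E4 and in 3 of 5 at D10.

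Cdkn1b (ENSMUSG00000003031, GRCm38 chromosome 6, 134920401 to 134925513, plus strand) differed by tissue and not detectably by time. In the ICM it had 45.3, 59.8, 79.3, 61.4 and 75.1 CPM at D10 and 18.5, 55.3, 42.2, 29.7 and 40.6 CPM at E4. TE libraries had 38.3, 5.89, 19.1, 11.6 and 18.3 CPM at D10 and 0, 0, 21.1, 13.3 and 6.96 CPM at E4. At both times the ICM library stood above the TE library of its litter in 5 of 5 litters. The gene was higher in ICM than in TE at D10 (log2 1.74 ± 0.41, adjusted p = 0.00250), with no overlap of the groups, and at E4 (1.85 ± 0.52, adjusted p = 0.00769), with overlap. The E4 difference rests in part on the litters with a zona pellucida, the 2 TE libraries at 0, and without those litters it was 1.23 (adjusted p = 0.0926). Across time the log2 change was 0.72 ± 0.40 in the ICM (95% interval -0.11 to 1.54, adjusted p = 0.208) and 0.82 ± 0.54 in the TE (-0.28 to 1.93, adjusted p = 0.293). With only the E4 litters with a zona the TE change was called (adjusted p = 0.0363), against E4 TE libraries that are both at 0, so no fold is given. In order, the means were 64.2 ± 13.5 CPM in D10 ICM, 37.3 ± 13.9 in E4 ICM, 18.6 ± 12.2 in D10 TE and 8.27 ± 9.05 in E4 TE. The D10 and E4 libraries of a tissue overlapped, and a rise in either tissue was neither called nor excluded.

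The other CDK inhibitors among the 10 had no call across time. Cdkn2c (ENSMUSG00000028551, GRCm38 chromosome 4, 109660876 to 109667189, minus strand) had 4.42 to 23.6 CPM in D10 ICM (median 10.6), 4.06 to 21.8 CPM in E4 ICM (median 15.1), 17.7 to 43.5 CPM in D10 TE (median 23.6) and 17.1 to 60.3 CPM in E4 TE (median 28.1). Its log2 change (D10 over E4) was 0.23 ± 0.50 in the ICM (95% interval -0.80 to 1.26, adjusted p = 0.781) and -0.24 ± 0.42 in the TE (-1.10 to 0.62, adjusted p = 0.738). It was lower in ICM than in TE at E4 (-1.30 ± 0.48, adjusted p = 0.0424), a call that was lost in 11 of 28 alternatives. With litter as a block it was -1.27 (adjusted p = 0.0533). It was also lost when E4 ICM replicate 2, 3 or 5 was left out, and likewise for E4 TE replicate 1, 2 or 3 (-0.96 to -1.72 over all single libraries left out, adjusted p up to 0.152). At D10 the difference was -0.83 ± 0.43 (adjusted p = 0.171).

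Cdkn1c (ENSMUSG00000037664, GRCm38 chromosome 7, 143458339 to 143461050, minus strand), an imprinted gene, was too low to test. It had 1, 9, 0, 13 and 1 counts in the D10 ICM libraries, against 1, 2, 2, 3 and 1 in E4 ICM, and 4, 1, 0, 24 and 0 counts in D10 TE, against 0, 0, 2, 1 and 0 in E4 TE. A single library, D10 TE replicate 4, thus held 24 of the 29 counts of its group. The pooled ratio of D10 to E4 was 1.80 in the ICM (95% interval 0.809 to 4.41) and 5.54 in the TE (1.72 to 28.4, from 3 counts at E4), and these intervals ignore the spread between libraries. Rbl2 (ENSMUSG00000031666, GRCm38 chromosome 8, 91070057 to 91123844, plus strand) had 2 counts in D10 ICM, 3 in E4 ICM, 2 in D10 TE and 1 in E4 TE, summed over 5 libraries each, and no difference was detectable at this depth. Its 3′ end overlaps Aktip on the other strand, and as strand use in the counting is not stated, even these counts are uncertain.

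Of the G cyclins, Ccng1 (ENSMUSG00000020326, GRCm38 chromosome 11, 40748552 to 40755311, minus strand) rose in both tissues. It had 99.6, 161, 137, 322 and 163 CPM in the D10 ICM libraries, against 24.7, 7.55, 17.8, 19.8 and 4.06 CPM in E4 ICM. In the TE it had 88.8, 279, 95.4, 198 and 62.8 CPM at D10, against 28.0, 4.02, 32.8, 26.7 and 27.8 CPM at E4. No D10 library overlapped the E4 libraries of its tissue. The gene rose by 3.62 ± 0.47 on the log2 scale in the ICM (177 ± 85.4 CPM at D10 and 14.8 ± 8.66 CPM at E4, adjusted p = 8.16e-06) and by 2.56 ± 0.45 in the TE (145 ± 91.0 CPM and 23.8 ± 11.3 CPM, adjusted p = 0.000175). The ICM minus TE difference of these changes was 1.06 ± 0.68 (95% interval -0.35 to 2.46, adjusted p = 0.417). The tissues differed by 0.33 ± 0.35 at D10 (adjusted p = 0.544) and by -0.73 ± 0.59 at E4 (adjusted p = 0.368).

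Ccng2 (ENSMUSG00000029385, GRCm38 chromosome 5, 93267257 to 93276231, plus strand) had a change of opposite sign in each tissue. In the TE it had 40.1, 23.6, 43.9, 34.9 and 28.8 CPM at D10, against 28.0, 24.1, 449, 236 and 181 CPM at E4. The ICM libraries had 13.6, 17.3, 42.3, 20.5 and 13.3 CPM at D10, against 0, 7.55, 8.89, 5.94 and 0 CPM at E4. The 3 highest E4 TE libraries thus stood above all other libraries of the series, while the other 2 lay within the D10 TE range. The gene fell in the TE (log2 -2.47 ± 0.49, adjusted p = 0.000639) and was not called in the ICM (1.81 ± 0.83, adjusted p = 0.118), where all D10 libraries were above all E4 libraries. The ICM call appeared under other settings (adjusted p = 0.00403 with no filter on low counts, 0.0395 with DESeq2 and 0.0473 without the E4 litters with a zona). At E4 Ccng2 was lower in ICM than in TE (-5.04 ± 0.67, adjusted p = 3.75e-06), with no overlap and 10 counts against 353. At D10 the difference was -0.75 ± 0.59 (adjusted p = 0.387; ICM lower in 5 of 5 litters). The ICM minus TE difference of the D10 minus E4 changes was 4.29 ± 0.95 (adjusted p = 0.00766). It was the 1 gene of the 8 called higher for that difference, where 3.26% of all genes were, and 0 were called lower, where 1.74% were. With limma voom the same difference was 3.66 (adjusted p = 0.145).

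The split within E4 TE followed a label of the barcode list. Embryos of 3 E4 litters had no zona pellucida, the glycoprotein coat that a blastocyst sheds when it hatches, and those of 2 litters still had one, whereas all D10 litters had none. Ccng2 stood at 181 to 449 CPM in the 3 E4 TE libraries without a zona and at 24.1 and 28.0 CPM in the 2 with one. In a comparison added after these values were seen, E4 TE without a zona over E4 TE with a zona, its log2 difference was 3.50 ± 0.53 (adjusted p = 0.00576). It was the 1 gene called there among 6943 (0.0144%), with 475 at an unadjusted p under 0.05. In E4 ICM the same comparison gave 0.13 ± 1.01 for Ccng2 (adjusted p = 1), and 0 genes were called (0.0%), with 354 at an unadjusted p under 0.05. With only the E4 litters with a zona kept, the D10 minus E4 change of Ccng2 in the TE was 0.43 (adjusted p = 0.671), so the direction turned. The tissue difference at E4 was then -2.25 (adjusted p = 0.139) and the difference of the changes 1.50 (adjusted p = 0.566). Without E4 TE replicate 3, the highest library, the change in the TE was -1.82 (adjusted p = 0.00659). The zona label shares its litters with any other difference between these litters, and these cannot be told apart.

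**Figure D2:**
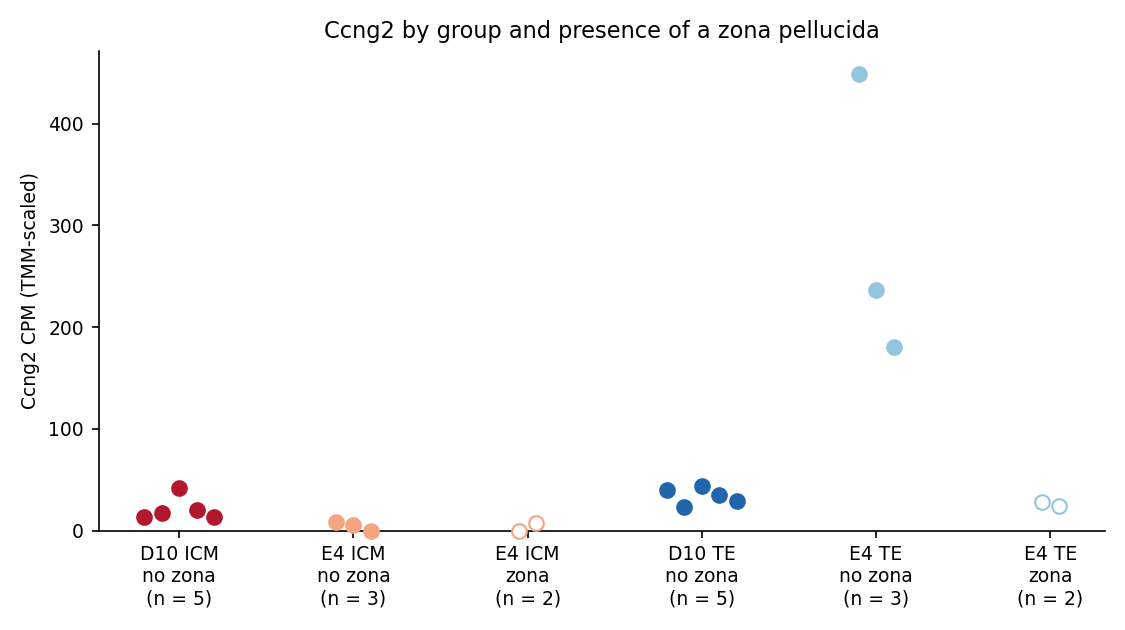
Ccng2 level in CPM (linear axis from 0) by group and by presence of a zona pellucida; each point is a library, open where the embryos had a zona. The 3 E4 TE libraries without a zona lie at 181 to 449 CPM, above the D10 TE libraries at 23.6 to 43.9 CPM and the 2 E4 TE libraries with a zona at 24.1 and 28.0 CPM.

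Both BTG genes rose in the ICM in the main fit, and neither passed the low-count filter in a fit of only the 2 ICM groups. Btg1 (ENSMUSG00000036478, GRCm38 chromosome 10, 96617006 to 96622809, plus strand) had 36.2, 17.3, 47.6, 25.6 and 106 CPM in D10 ICM, against 12.4, 22.6, 4.44, 7.92 and 4.06 CPM in E4 ICM. The groups overlapped, since E4 ICM replicate 2 stood above D10 ICM replicate 2. Its mean was 46.5 ± 35.1 CPM at D10 and 10.3 ± 7.67 CPM at E4 (log2 1.99 ± 0.51, adjusted p = 0.00573). Without E4 ICM replicate 2 the change was 2.59 (adjusted p = 0.00233), and with only the E4 litters with a zona it was 1.12 (adjusted p = 0.272). In the TE, Btg1 had 61.0, 43.2, 42.0, 43.3 and 31.4 CPM at D10, against 22.4, 12.1, 30.4, 24.8 and 6.96 CPM at E4. These groups did not overlap, yet the change of 1.05 ± 0.44 missed the threshold (95% interval 0.15 to 1.96, unadjusted, adjusted p = 0.0881). It passed in a fit of only the TE groups (adjusted p = 0.0292) and without D10 ICM replicate 5 (0.0490). The annotation also lists pseudogenes of Btg1, so reads may have been split between copies and its level is uncertain. Between the tissues, ICM over TE, it differed by -0.09 ± 0.40 at D10 (adjusted p = 0.911) and by -1.03 ± 0.55 at E4 (adjusted p = 0.162). The E4 difference was called without the E4 litters with a zona (-2.01, adjusted p = 0.0482) and without E4 ICM replicate 2 (-1.63, adjusted p = 0.0480).

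Btg2 (ENSMUSG00000020423, GRCm38 chromosome 1, 134075170 to 134079120, minus strand) had 59.2, 58.9, 89.7, 79.9 and 139 CPM in D10 TE, against 22.4, 8.03, 16.4, 15.2 and 55.7 CPM in E4 TE. The groups did not overlap, and the gene rose (85.3 ± 32.7 CPM at D10 and 23.5 ± 18.7 CPM at E4, log2 2.05 ± 0.55, adjusted p = 0.00882). The call was lost without the E4 litters with a zona (1.83, adjusted p = 0.0677) and with only those (2.55, adjusted p = 0.0834). In the ICM it had 18.1, 22.0, 26.4, 124 and 4.42 CPM at D10, against 6.18, 2.52, 0, 1.98 and 0 CPM at E4. The ICM groups overlapped, since D10 ICM replicate 5 lay under E4 ICM replicate 1, each with 1 count. D10 ICM replicate 4 held 121 of the 145 counts at D10, and E4 ICM held 3 counts in all, so the pooled ratio was 32.7 (95% interval 11.0 to 160, counting error only). The fitted change was 4.55 ± 0.84 (adjusted p = 0.000344), and without that D10 library 3.19 (adjusted p = 0.00331). With only the E4 litters with a zona it was 3.59 (adjusted p = 0.0547). At E4 Btg2 was lower in ICM than in TE (-3.34 ± 1.00, adjusted p = 0.0120) with no overlap of the groups, and was not called with limma voom (-2.62, adjusted p = 0.0723; -2.65 and 0.0512 with litter as a random block) or with only the E4 litters with a zona (-1.88, adjusted p = 0.578). At D10 the tissue difference was -0.84 ± 0.46 (adjusted p = 0.193). It was called with litter as a block (-1.18, adjusted p = 0.0465), with libraries thinned to an equal total (-1.27, adjusted p = 0.0488) and without D10 ICM replicate 4 (-2.19, adjusted p = 0.000593).

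Pdcd4 (ENSMUSG00000024975, GRCm38 chromosome 19, 53892231 to 53929860, plus strand) had the smallest SE of the change among the 8 genes. Its level was 580, 911, 1004, 943 and 1095 CPM in D10 ICM, against 124, 111, 111, 178 and 175 CPM in E4 ICM. TE libraries had 1003, 1056, 1288, 1153 and 1727 CPM at D10, against 224, 149, 84.2, 265 and 362 CPM at E4. Every D10 library stood above every E4 library, also across tissues. The gene rose by 2.69 ± 0.29 in the ICM (907 ± 196 CPM at D10 and 140 ± 34.1 CPM at E4, adjusted p = 5.97e-07) and by 2.55 ± 0.29 in the TE (1246 ± 290 and 217 ± 107 CPM, adjusted p = 6.43e-07), on the log2 scale. The ICM minus TE difference of the changes was 0.14 ± 0.39 (95% interval -0.67 to 0.95, adjusted p = 0.900). Both calls were kept in every alternative run, with an adjusted p of at most 0.000181. The tissues differed by -0.46 ± 0.26 at D10 (ICM lower in 5 of 5 litters, adjusted p = 0.220) and by -0.60 ± 0.29 at E4 (lower in 4 of 5 litters, adjusted p = 0.126), the second called without E4 TE replicate 3 (-0.83, adjusted p = 0.0204). Bbip1, on the other strand, lies within 1000 bases of the 3′ end of Pdcd4 without overlapping it.

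**Figure D3:**
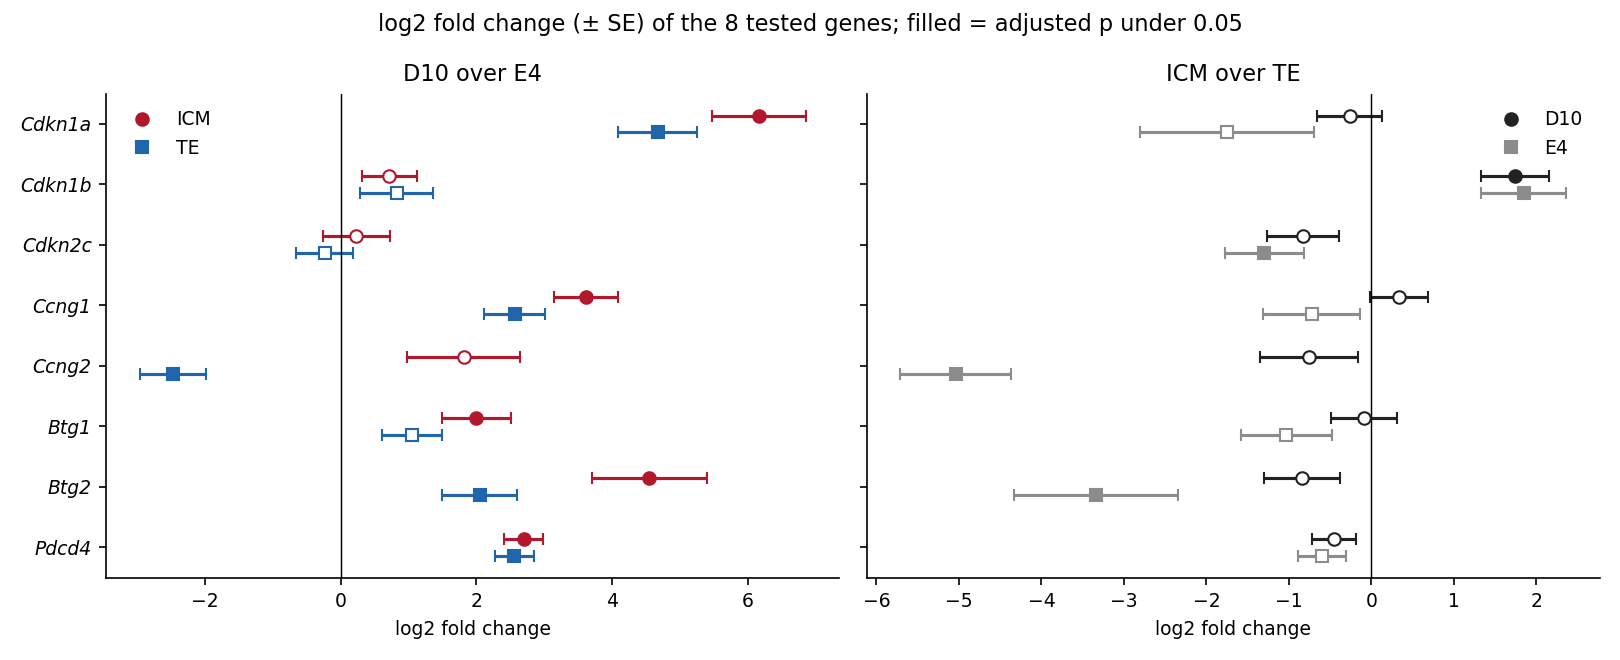
Log2 fold change with its SE for the 8 tested genes, D10 over E4 in each tissue (left) and ICM over TE at each time (right); filled symbols have an adjusted p under 0.05. Cdkn1a, Ccng1, Btg2 and Pdcd4 are filled and to the right of 0 in both tissues, and Ccng2 is filled in the TE at -2.47 and open in the ICM at 1.81.

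The tissue comparison asked which of these genes distinguish ICM from TE. At D10 1 of 8 was higher in the ICM (Cdkn1b) and 0 lower, where 13.1% of all genes were higher and 12.4% lower, with a median of -0.36 against 0.02 over all genes. At E4 1 was higher (Cdkn1b) and 3 lower (Ccng2, Btg2 and Cdkn2c), where 15.5% were higher and 15.7% lower, with a median of -1.16 against 0.03. Here too the low-count filter used all libraries. In a fit of only the 2 E4 groups, 1 of the 10 genes passed it (Pdcd4), and the genes called at E4 did not. Their number is thus not on the same footing as the share of all genes. At D10 the ICM libraries all lay above the TE libraries for 1 gene, against 8.07% of all genes, and below for 0, against 8.24%. At E4 they lay above for 0, against 10.6%, and below for 2, against 9.98%. These comparisons share libraries with those across time, so a low E4 ICM group enters both.

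At D10 the level of Cdkn1a varied between litters and did so in both tissues. Litters F (replicate 2) and Q (replicate 4) had the highest values, 285 and 353 CPM in the ICM and 589 and 339 CPM in the TE, against 81.5 to 199 CPM and 118 to 150 CPM in the other 3 litters. Mdm2, the ubiquitin ligase that degrades p53 and is itself a p53 target, was highest in the same litters, with 110 and 168 CPM in the ICM and 218 and 158 CPM in the TE, against 52.8 to 86.1 CPM and 73.3 to 87.7 CPM in the others. Ccng1 followed in the TE, with 279 and 198 CPM against 62.8 to 95.4 CPM. In the ICM it was highest in litter Q (322 CPM), while litter F (161 CPM) lay just under litter S (163 CPM). Pdcd4 did not share this order and was highest in litter S in both tissues. Nor did Btg2, which was lowest in litter F (58.9 CPM) and highest in litter S (139 CPM) in the TE, and in the ICM stood at 22.0 CPM in litter F and was highest in litter Q (124 CPM). The ICM libraries of F and Q were also the deepest of their group, with 660445 and 1010354 counts, whereas D10 TE totals lay close together (449524 to 579016). Trp53, the gene of p53, was highest in litters Q (191 CPM) and F (137 CPM) in the ICM. In the TE it was highest in litter S (73.3 CPM) and lowest in litter F (39.3 CPM), with 44.9 CPM in litter Q. Litters F and Q were singled out by their Cdkn1a levels, and no cause of a shared order was tested. Only 5 litters were measured, so no correlation is given.

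**Figure D4:**
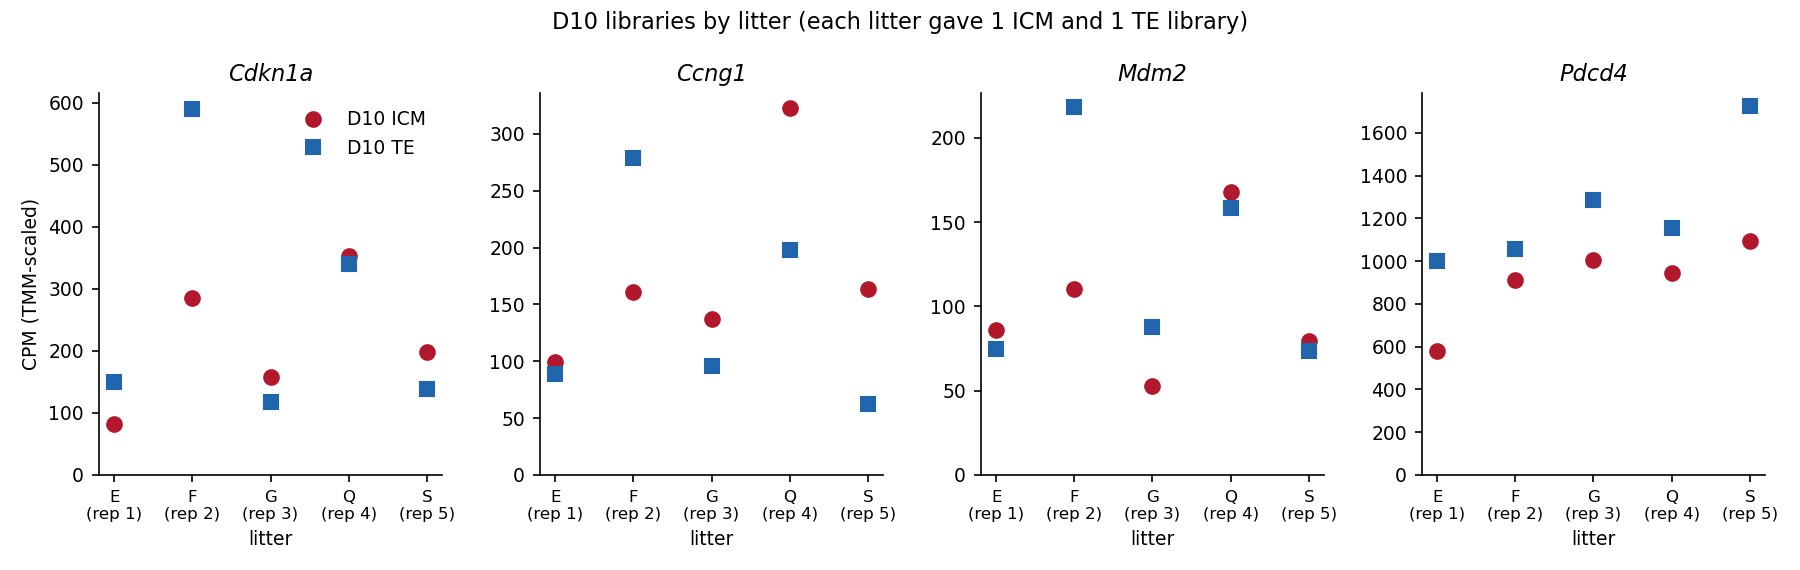
CPM (linear axes from 0) of Cdkn1a, Ccng1, Mdm2 and Pdcd4 in the D10 libraries by litter; circles are ICM and squares TE, and each litter gave 1 library of each. Cdkn1a and Mdm2 are highest in litters F and Q in both tissues, and Pdcd4 in litter S.

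Other CDK inhibitor genes were low. Cdkn2a, Cdkn2b, Cdkn2d and Cdkn3 gave 0 tested genes of 4. Cdkn2d had 81 counts in D10 ICM, 22 in E4 ICM, 26 in D10 TE and 24 in E4 TE. Cdkn2a, which encodes the senescence marker p16, had 2 counts in D10 ICM, 1 in E4 ICM, 0 in D10 TE and 0 in E4 TE.

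Among the kinases and cyclins that these inhibitors act on, 0 of 5 tested G1 and S phase genes changed in the ICM, and 2 rose and 0 fell in the TE. Here and in the lists below, the share among all tested genes was 13.7% higher and 9.92% lower in the ICM, and 11.7% higher and 10.3% lower in the TE. Of the 29 calls across time among the genes of these lists that are named here, 22 were lost in 1 alternative or more, 15 of them without the E4 litters with a zona and 18 with only those, where 2 E4 libraries a tissue remain. The 7 others (Trp53inp1 in both tissues and Ccnb2, Cdc25a, Foxo4, Trp53 and Klf6 in the TE) were kept in every alternative that gave a value. Cdk4, the partner of the D cyclins, had 351 ± 75.2 CPM in D10 TE and 222 ± 6.88 CPM in E4 TE (log2 0.66 ± 0.20, adjusted p = 0.0200), and the call was lost without D10 TE replicate 1 or 4 (adjusted p up to 0.0579), with no filter (0.0693), after thinning (0.0868), with only the zona litters of E4 (0.161) and without them (0.115). Ccne1, cyclin E1, rose there by 1.89 ± 0.64 (adjusted p = 0.0351), a call lost in 11 of 29 alternatives, leaving out E4 TE replicate 1, 3, 4 or 5 or D10 TE replicate 1 or 4 among them (adjusted p up to 0.103). Of 5 tested mitotic genes, 0 changed in the ICM, where Cdk1, the mitotic kinase, stood at 397 ± 79.5 CPM at D10 and 532 ± 207 CPM at E4 (log2 -0.41 ± 0.40, adjusted p = 0.494). In the TE 1 rose and 1 fell. Ccnb2, cyclin B2, fell by 1.73 (SE 0.42, adjusted p = 0.00374), to 44.5 ± 27.5 CPM in D10 TE, against 151 ± 67.4 CPM in E4 TE. Cdc25a, a phosphatase that activates CDKs, rose by 1.96 ± 0.27 (168 ± 28.1 CPM in D10 TE and 41.5 ± 17.4 CPM in E4 TE, adjusted p = 7.29e-06) and its D10 minus E4 change was smaller in the ICM than in the TE (difference -2.09 ± 0.36, adjusted p = 0.000891). The median log2 change of the mitotic genes was -0.12 in the ICM and -0.41 in the TE.

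The pocket protein, E2F and DREAM list, through which the inhibitors act on transcription, had 1 of 13 tested genes higher (13.7% of all genes) and 0 lower (9.92%) in the ICM, and 1 higher (11.7%) and 2 lower (10.3%) in the TE. Tfdp2, a partner of E2F factors, rose in the TE (1.58 ± 0.42, adjusted p = 0.00773) and in the ICM (1.10 ± 0.37, adjusted p = 0.0324). The ICM call was lost in 11 of 29 alternatives, among them leaving out E4 ICM replicate 1, 3 or 4 or any D10 ICM replicate but 4 (adjusted p up to 0.0823). E2f8, a repressor E2F, fell to 87.2 ± 9.96 CPM in D10 TE, against 210 ± 43.8 CPM in E4 TE (log2 -1.26 ± 0.27, adjusted p = 0.00134), and Tfdp1 to 41.9 ± 14.6 CPM, against 90.9 ± 6.19 CPM (-1.11 ± 0.27, adjusted p = 0.00380). With only the E4 litters with a zona, E2f8 (adjusted p = 0.0632), Tfdp1 (0.0773) and Tfdp2 in the TE (0.0903) were not called. Without those litters Tfdp2 in the TE was not called either. In the list of genes that degrade CDK inhibitors (the SCF and CRL4 ubiquitin ligases), 0 of 11 changed in the ICM, and 1 rose and 1 fell in the TE. Cks2, a CDK subunit, had 6.95 ± 1.84 CPM in D10 TE and 23.7 ± 7.17 CPM in E4 TE (-1.64 ± 0.45, adjusted p = 0.00903), and 7.60 ± 4.29 and 21.2 ± 9.38 CPM in D10 and E4 ICM (-1.13 ± 0.44, adjusted p = 0.0618). Its TE call was lost with only the E4 litters with a zona. Ddb1, of CRL4, rose in the TE by 0.58 ± 0.18 (adjusted p = 0.0204), and not without D10 TE replicate 3 (adjusted p = 0.0576), without the E4 litters with a zona (0.0520), with only those (0.310) or with no filter (0.122).

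Partners of the BTG proteins and of PDCD4 had calls only downward in the ICM. Of 12 tested BTG/TOB and CCR4-NOT genes, 0 rose and 4 fell there, where 9.92% of all genes fell, and 0 rose and 1 fell in the TE, where 10.3% fell. Cnot1, the scaffold of the deadenylase, had 91.0 ± 29.6 CPM in D10 ICM and 160 ± 30.1 CPM in E4 ICM (log2 -0.84 ± 0.21, adjusted p = 0.00578), and Cnot2 45.0 ± 2.56 and 76.8 ± 11.0 CPM (-0.75 ± 0.22, adjusted p = 0.0130). The Cnot2 call was lost with no filter (adjusted p = 0.144), without the E4 litters with a zona (0.0649), with only those (0.0941) and after thinning (-0.17, adjusted p = 0.744). That of Cnot1 was lost without those litters (-0.71, adjusted p = 0.0533). Cnot10 had 32.9 ± 13.8 CPM in D10 ICM and 59.1 ± 10.3 CPM in E4 ICM (-0.82 ± 0.27, adjusted p = 0.0294), lost without E4 ICM replicate 2 or 3 or D10 ICM replicate 2 or 3 (adjusted p up to 0.0880). The Cnot10 call was also lost with no filter, in a fit of only the ICM groups, without the E4 litters with a zona and with only those. Pabpc1, the poly(A) binding protein, fell in the TE by 0.83 (SE 0.22, adjusted p = 0.00831) and in the ICM by 0.62 (SE 0.22, adjusted p = 0.0454), and the ICM call was lost in 21 of 30 alternatives, 15 of them with 1 library left out. Without the E4 litters with a zona its TE change was -0.64 (adjusted p = 0.114). Of 7 tested PDCD4 partners 0 rose and 3 fell in the ICM, and 0 changed in the TE. Eif4g1, the scaffold of the cap complex, had 107 ± 52.2 CPM in D10 ICM and 226 ± 40.0 CPM in E4 ICM (-1.03 ± 0.27, adjusted p = 0.00666), and Eif4a1, the helicase that PDCD4 binds, 203 ± 84.5 and 369 ± 71.2 CPM (-0.87 ± 0.25, adjusted p = 0.0138; 0.0576 without D10 ICM replicate 2). With only the E4 litters with a zona neither was called (Eif4g1 -0.98, adjusted p = 0.0808, and Eif4a1 0.0626), and without those litters Eif4a1 was not (0.0842). Btrc, a subunit of the ligase that degrades PDCD4, fell in the ICM by 0.84 (SE 0.28, adjusted p = 0.0329), a call lost in 11 of 30 alternatives, among them leaving out E4 ICM replicate 1, 2 or 5 or D10 ICM replicate 3, 4 or 5 (adjusted p up to 0.108). Of 8 tested PP2A and cyclin G genes, 1 rose in the ICM, Ppp2r5c (0.69 ± 0.24, adjusted p = 0.0360, lost in 9 of 30 alternatives, among them leaving out E4 ICM replicate 1, 3 or 5 or D10 ICM replicate 3 or 4), and 0 changed in the TE. The smallest adjusted p in the TE was that of Eif4a2 among the PDCD4 partners (0.71 ± 0.26, adjusted p = 0.0502) and of Ppp2r5e among the PP2A genes (-0.71 ± 0.31, adjusted p = 0.0990).

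Of the factors upstream, 2 of 6 tested FOXO and p53 genes rose in the ICM, where 13.7% of all genes did, and 3 in the TE, where 11.7% did, and 0 fell. Foxo4 had 61.2 ± 16.3 CPM in D10 ICM and 21.7 ± 14.9 CPM in E4 ICM (log2 1.56 ± 0.35, adjusted p = 0.00203), and 81.1 ± 22.1 CPM in D10 TE and 31.3 ± 8.82 CPM in E4 TE (1.32 ± 0.32, adjusted p = 0.00380). Mdm2 rose by 1.03 ± 0.33 in the ICM (adjusted p = 0.0250) and 1.03 ± 0.33 in the TE (adjusted p = 0.0237). The Foxo4 call in the ICM was lost with only the E4 litters with a zona (adjusted p = 0.0719) and after thinning (0.0554). The Mdm2 calls depended on single libraries: the ICM call was lost without D10 ICM replicate 4 or E4 ICM replicate 2 (adjusted p up to 0.129), and the TE call without D10 TE replicate 2 or 4 or E4 TE replicate 1, 2 or 4 (adjusted p up to 0.104). Both Mdm2 calls were also lost after thinning, without the E4 litters with a zona and with only those. Trp53, which encodes p53, rose in the TE to 52.8 ± 14.5 CPM at D10, against 11.8 ± 13.7 CPM at E4 (2.28 ± 0.40, adjusted p = 0.000162), while the ICM held 138 ± 31.4 CPM at D10 and 136 ± 21.6 CPM at E4. The difference of the changes was -2.21 ± 0.48 (adjusted p = 0.00681). The annotation also lists a Trp53 pseudogene, so its level is uncertain.

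In the list of other arrest and stress genes, 6 of 18 could be tested, 2 rose and 1 fell in the ICM, and 1 rose and 1 fell in the TE. Trp53inp1, a p53 target, had 22.6, 69.2, 68.7, 126 and 119 CPM in D10 ICM, against 0, 7.55, 6.66, 1.98 and 24.4 CPM in E4 ICM (log2 3.42 ± 0.51, adjusted p = 3.41e-05; 4.11 without E4 ICM replicate 5). In the TE it had 78.4, 177, 89.7, 96.5 and 89.0 CPM at D10, against 16.8, 12.1, 32.8, 22.9 and 41.7 CPM at E4 (2.08 ± 0.42, adjusted p = 0.000763). Its highest D10 values were in litters Q and S in the ICM and in litters F and Q in the TE. Sesn2, a stress-induced inhibitor of mTORC1 signalling, rose in the ICM by 1.84 ± 0.49 (adjusted p = 0.00750), and not without D10 ICM replicate 4 (1.35, adjusted p = 0.0695). Klf4, a pluripotency factor and itself part of the lower sum of epiblast markers given above, fell in the ICM by 1.05 (SE 0.29, adjusted p = 0.0110). That call was lost with only the E4 litters with a zona. Klf6 fell in the TE by 0.78 (SE 0.21, adjusted p = 0.00762). Gadd45a, a damage-induced gene, was too low to test, with 43 counts in D10 ICM, 12 in E4 ICM, 7 in D10 TE and 1 in E4 TE.

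**Figure D5:**
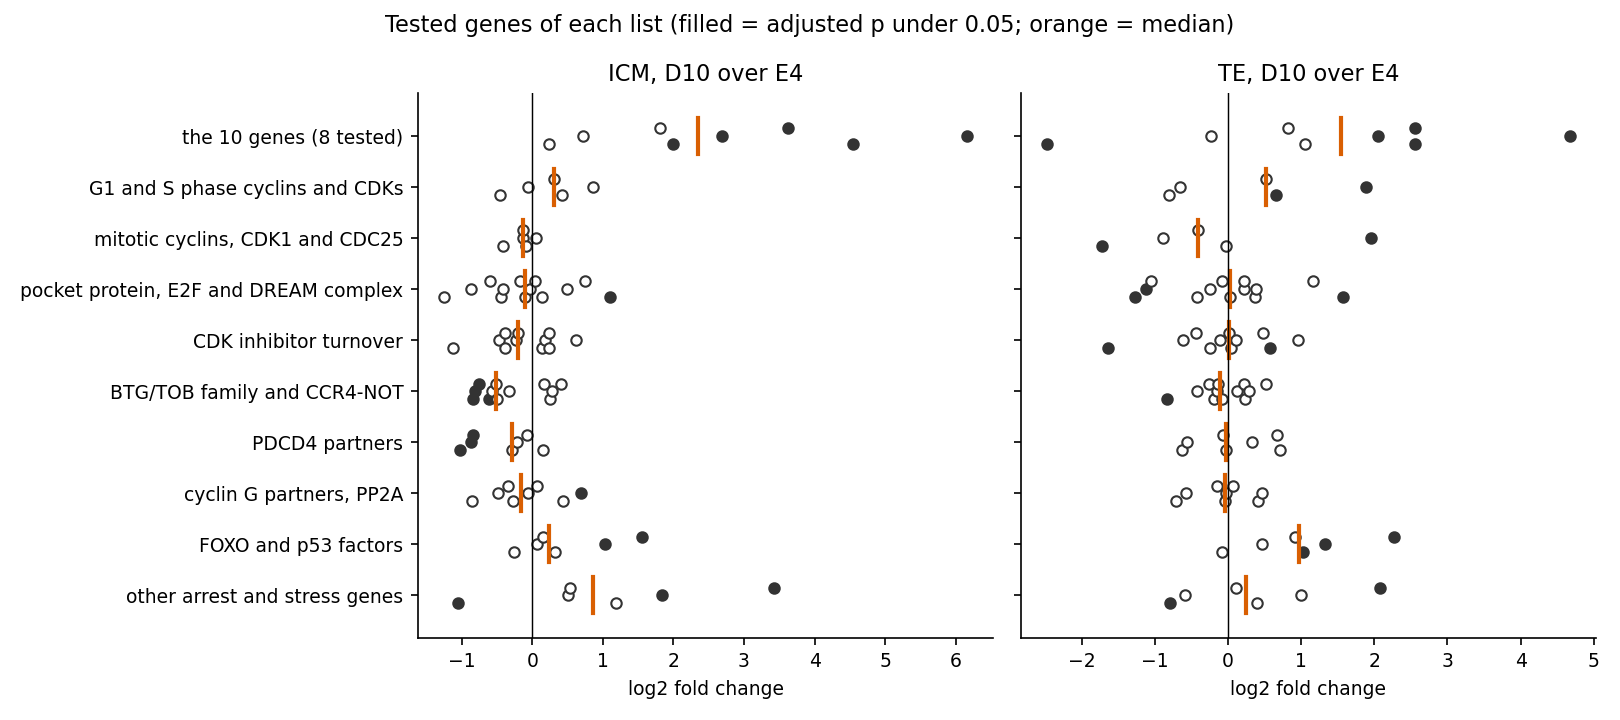
Log2 fold change, D10 over E4, of every tested gene of each list in the ICM (left) and the TE (right); filled points have an adjusted p under 0.05 and orange bars mark medians. The median of the 10 genes' tested members is 2.34 in the ICM and 1.55 in the TE, while the medians of the other lists lie between -0.51 (BTG/CCR4-NOT genes in the ICM) and 0.97 (FOXO and p53 genes in the TE), with 0.86 for the other arrest genes in the ICM.

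For each tested gene the nearest patterns were sought over the 20 libraries among 3360 genes whose level was at least the median, by the root mean square (RMS) difference of log2 CPM centred on each gene's mean. Akap13 was nearest to Pdcd4 (RMS 0.62, where Pdcd4 itself varied by 1.41 about its mean), with mean levels of 130 CPM in D10 ICM, 28.9 in E4 ICM, 179 in D10 TE and 20.6 in E4 TE. Pnpla2 came next, at 0.64. For Cdkn1a the nearest were Rhox5 (1.21) and Bex3 (1.27), against its own variation of 2.35. Ccng1 was nearest to Pdlim1 (0.82) and Clic1 (0.87), against 1.57. Ccng2 was nearest to Basp1 (0.71) and Cmklr1 (0.86), against 1.62, and Basp1 also had its highest mean in E4 TE, with 231 CPM in D10 ICM, 157 in E4 ICM, 400 in D10 TE and 1210 in E4 TE. Cdkn1b was nearest to Naf1 (0.68) and Impdh2 (0.70), Cdkn2c to Ptrhd1 (0.40) and Rala (0.47), Btg1 to Lpp (0.52) and Stxbp3 (0.62), and Btg2 to Dab2 (0.84) and Atp6ap1 (0.89). These are descriptions over libraries that share pools and litters.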

How the data were processed

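The data were raw counts per gene and barcoded library, which the authors deposited as a table with 21470 genes in rows and 20 libraries in columns (8 rows without a gene symbol holding 0.0006% of counts). The litter and zona labels come from the deposited barcode list. Per the labels' protocols, lysates were reverse transcribed with barcoded dT primers (BRB-seq, with a UMI of 10 bases, a barcode of 9 bases and an insert of 81 bases). HISAT2 2.2.1, featureCounts 2.0.1, Trim Galore 0.6.7 and UMI-tools are listed, per the submitters' processing notes, with GRCh38 and GRCm38 as builds. Whether UMIs were collapsed, strand use and the gene annotation are not given in these sources. Intervals on counts cover counting error only, and if UMIs were not collapsed they are too narrow even for that.

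Counts were tested with edgeR 4.0.16 in R 4.3.3 (TMM, filterByExpr with a minimum count of 10, 6943 genes, 1 quasi-likelihood fit of all 4 groups), with p-values adjusted by Benjamini-Hochberg within each comparison at 0.05 and SE taken from the log2 fold change and F. Intervals of 95% on log2 fold changes use the t quantile that matches each test's F and p, and those on pooled counts are exact binomial. The low-count filter uses all libraries, so a gene high in only 1 group could enter. P-values reflect only how these libraries vary, which may be technical. The script was checked on simulated counts. Alternatives were DESeq2 1.42.0 and its size factors, limma 3.58.1 voom, no filter or a minimum of 20, only the compared groups, libraries thinned to 144276 counts, E4 without or with only zona litters (the last chosen after seeing the data), litter as a block, and each library left out.

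Same-numbered ICM and TE libraries share a litter per the barcode list, and their deviations from the group means correlated by 0.177 on average at E4 (0.104 to 0.263) and 0.168 at D10 (-0.0305 to 0.293). Named genes were all 10 genes, and up to 3 called genes with the smallest adjusted p per list and tissue across time (without any, the smallest), plus 2 nearest patterns per gene. Genes named beyond that rule (Pabpc1 in the ICM, Cdkn2a, Cdkn2d and Gadd45a) were chosen after their values were seen. Genes and lists were chosen with earlier results of these data known. Gene positions are from the GENCODE annotation of GRCm38. Motifs were searched with exact letters, the p53 decamer by its consensus.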

Additional observations from a re-analysis of the deposited data

Results flagged for a closer look

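Of 40 groups of 5 libraries examined (10 genes in 4 groups), 7 held a library whose gap to the nearest of the others exceeded Dixon's critical value of 0.71, where chance gives about 1 in 20 for normally spread values. With 1 counted library of 5 the gap is the whole range by construction, so the 7 are not set against that rate. High libraries were D10 TE replicate 4 for Cdkn1c (39.9 CPM, the others 0 to 6.97), D10 ICM replicate 4 for Ccng1 (322 CPM, the others 99.6 to 163) and for Btg2 (124 CPM, the others 4.42 to 26.4), and D10 ICM replicate 3 for Ccng2 (42.3 CPM, the others 13.3 to 20.5). D10 ICM replicate 4 is the deepest library, with 1010354 counts, and had 127 CPM of blood markers summed, against 0 to 13.6 CPM in the other D10 ICM libraries. The part of this in its Btg2 and Ccng1 values was not tested. A low library was E4 TE replicate 2 for Ccng1 (4.02 CPM from 1 count, the others 26.7 to 32.8). For Rbl2 the single counts of D10 ICM replicate 1 (4.53 CPM) and E4 TE replicate 4 (1.90 CPM) stood apart from libraries at or near 0.

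The D10 minus E4 change of Ccng2 differed between ICM and TE by 4.29 on the log2 scale (SE 0.95, adjusted p = 0.00766 by edgeR), and this rests on the 3 E4 TE libraries without a zona: with only the E4 litters with a zona it was 1.50 (adjusted p = 0.566).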

How the results depend on the processing

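Over 1169 alternative values of the 8 tested genes, 1131 kept their side of the threshold, 23 lost a call and 14 gained one. In 1 a called change turned direction, that of Ccng2 in the TE with only the E4 litters with a zona (0.43). Results that stayed uncalled count as kept, also where the sign turned (Cdkn1a, ICM over TE at D10, -0.52 to 0.25). A setting where a gene failed the filter gives no value and no lost call. For each result 20 alternatives left out 1 library, also libraries of groups not compared. Each scaling tried moved the median of all genes by under 0.1. For the shifts below the cause was not tested, beyond the smaller fits of some settings: 5 of the 10 genes could be tested at a minimum count of 20, 4 after thinning, and 4, 7 and 1 in fits of only the compared groups (ICM, TE and E4).

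For D10 against E4 in the ICM, 3 of the genes rose with only the 2 groups and with only the zona litters. All genes called were 503 higher and 367 lower after thinning, 377 lower without the zona litters, and 575 and 339 with only those. In the TE, 0 of the genes fell at a minimum of 20, after thinning and with only the zona litters, and all genes were 430 higher and 364 lower after thinning and 410 and 340 with only the zona litters.

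For ICM against TE at E4, 1 of the genes was lower at a minimum of 20, with voom and after thinning, and 0 with only the 2 groups or only the zona litters. The count higher was 0 with only the 2 groups, after thinning and without the zona litters. All genes were 577 higher and 617 lower after thinning and 177 and 213 with only the zona litters. At D10, 1474 genes were higher with no filter, 462 higher and 446 lower after thinning, and of the genes 0 were higher and 1 lower after thinning. With litter as a replicate block 1 (Btg2) was lower at D10.

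For the difference of the changes, 2 of the genes were higher with no filter, and 0 at a minimum of 20, with voom, after thinning, with voom and litter as a random block (Ccng2 3.66, adjusted p = 0.0987), and with only the zona litters. All genes were 352 higher and 186 lower with no filter, 117 and 76 after thinning, 144 and 54 without the zona litters, 191 lower with the voom block, and 47 and 14 with only the zona litters. Litter as a fixed block changed no call of the 8 genes but those of Cdkn2c at E4 and Btg2 at D10. Btg2 at E4 and this difference of Ccng2 kept their calls with it, and were not called with voom with the random block (Btg2 -2.65, adjusted p = 0.0512) or without it.

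With 1 library left out, the genes called lower for ICM against TE at D10 numbered 0 to 1 (1 without D10 ICM replicate 4), and all genes called lower for the difference of the changes 80 to 127. Depth limits the low genes most: E4 ICM held 3 counts of Btg2, 5 of Cdkn1a and 10 of Ccng2, and Cdkn1c and Rbl2 allow no test.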

Other observations

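The zona comparison within E4 (without over with, chosen after seeing the Ccng2 values) left the other 7 tested genes uncalled in both tissues. Cdkn1b had 9, 7 and 1 counts in E4 TE replicates 3, 4 and 5, all without a zona, against 0 counts in both libraries with one, where 3 counts equal 16.6 and 12.5 CPM before TMM scaling (adjusted p = 0.481 by edgeR). Btg1 in E4 ICM had 4.06 to 7.92 CPM without a zona and 12.4 to 22.6 CPM with one (-1.67 ± 0.83, adjusted p = 0.983). Cdkn2c in E4 TE had 17.1 to 28.1 CPM without a zona and 39.2 to 60.3 CPM with one (-1.18 ± 0.59, adjusted p = 0.747). With 3 litters against 2, these values do not separate a zona from a litter.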
